A study of Mus musculus with 16 samples.

Results

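Expression of *Trp53*, the gene for the transcription factor p53, and of 7 of its known target genes was followed in mouse TCF1+CD8+ T cells exposed to prostaglandin E2 (PGE2) before restimulation. The 8 genes, of 54532 in the count table, are *Aen*, *Mdm2*, *Ccng1*, *Trp53inp1*, *Zmat3*, *Phlda3*, *Sesn1* and *Trp53*, and each symbol matched 1 row. *Aen* was chosen by its measured level, which was sharply lower with PGE2 in cells without beads, and the others accompany it as p53 targets or as the factor itself. The values of *Aen* in that comparison, and in the comparisons that share libraries with it, are therefore given as a description without a test.

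The cells were C57BL/6J CD8+ T cells, taken naive from spleen and differentiated in culture for 4 days into repetitively activated TCF1+ cells. They were kept for 1 h with PGE2 at 100 ng per ml or without it. For a further 4 h they then received IL-2 at 85 U per ml alone, or the same IL-2 with beads carrying anti-CD3 and anti-CD28 antibodies at 1 bead per cell, which engage the antigen receptor and CD28. All 4 groups thus had IL-2, and each has 4 replicates numbered 1 to 4. The labels do not say whether replicates came from separate mice or cultures, so p-values measure the spread between these samples, which may be technical.

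p53 is a transcription factor held at a low level by MDM2, a ubiquitin ligase that is itself a p53 target. DNA damage and other stresses free p53 from MDM2, and it then binds paired 10-base elements and raises genes for cell cycle arrest, apoptosis, repair and the restraint of growth signalling. In T cells, p53 is known to restrain division driven by antigen and IL-2, and its level is also set by signals other than DNA damage.

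The 16 libraries held 22678254 to 42950763 counts, with 1.43% to 1.77% of them from mitochondrial genes. The CD8 T cell markers *Cd8a*, *Cd8b1*, *Cd3e* and *Tcf7* were detected in each group and summed to between 1888 and 3618 CPM (counts scaled to library size) per library. *Tcf7*, which encodes TCF1, lay at 912 to 1539 CPM without beads and at 289 to 469 CPM with them. Sums of marker lists per library reached 6.16 CPM for B cells, 0.470 CPM for myeloid cells, 10.2 CPM for CD4 T cells and 0.423 CPM for erythroid cells. The NK cell list of 3 genes reached 178 CPM with beads through *Eomes*, a gene of activated CD8 T cells as well, whereas *Ncr1* was at 0 in every library and *Klrb1c* had at most 3 counts. The part of other cells in the results below was not tested. In bulk RNA, fewer cells that express a gene and less RNA per cell cannot be told apart.

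The 8 genes are protein-coding. On GRCm38 they lie at chr7:78895854-78911209 (*Aen*, plus strand), chr10:117688875-117710758 (*Mdm2*, minus), chr11:40748552-40755311 (*Ccng1*, minus), chr4:11156431-11174379 (*Trp53inp1*, plus), chr3:32334792-32366014 (*Zmat3*, minus), chr1:135766119-135769136 (*Phlda3*, plus), chr10:41809935-41908424 (*Sesn1*, plus) and chr11:69580359-69591873 (*Trp53*, plus). No exon of any of them overlaps an exon of another annotated gene. *Trp53* has a processed pseudogene, *Trp53-ps*, with a mean of 2.21 CPM, and reads that both could hold cannot be told apart. *Ccng1* has a pseudogene that was at 0 in all libraries. The lowest count of any of the 8 genes in any library was 279.

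Promoter sequence from RefSeq (GRCm38.p6, 300 bases around a start site, mostly before it) was on hand for *Aen*, *Ccng1*, *Mdm2*, *Phlda3*, *Sesn1* and *Trp53*, in 8 windows. *Zmat3* and *Trp53inp1* were not matched. The windows were searched on both strands for the p53 consensus decamer, for CACGTG, the E-box that MYC and its relatives bind, and for TGACGTCA and TGACG, the full and short elements of the cAMP-responsive factor CREB, since PGE2 raises cAMP in T cells. These motifs were picked after the expression values were seen, TGACG lies within TGACGTCA, and a match is a description and not a binding site. The decamer stood in 6 of the 8 windows, or 5 of the 6 genes, since the *Aen* windows overlap and share the same site. *Phlda3* and the upstream *Sesn1* window had none. It stood in 8.36% of all 32841 promoters, but the genes were picked as p53 genes, so no conclusion is drawn from the difference. Of the motifs searched, the decamer is the one that most of these promoters have in common, and its sequences are therefore shown. The decamer is in capitals, and the gene's own strand is read 5′ to 3′:
Aen, chr7:78895927-78895956: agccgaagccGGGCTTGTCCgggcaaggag
Ccng1, chr11:40755452-40755481: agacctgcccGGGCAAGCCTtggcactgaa
Mdm2, chr10:117710925-117710954: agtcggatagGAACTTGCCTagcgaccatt
Sesn1, chr10:41887256-41887285: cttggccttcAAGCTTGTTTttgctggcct
Trp53, chr11:69580274-69580303: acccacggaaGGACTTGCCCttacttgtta

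The *Aen* decamer lies in both of its windows, at position -121 from one start site and 11 from the other. Those of *Ccng1*, *Mdm2*, *Sesn1* and *Trp53* begin at -185, -186, -173 and -75 from theirs. CACGTG was found in *Aen* and *Trp53* alone among the 6 genes, and in 7.15% of all promoters. Each lies in a window that also holds the decamer and is shown for that reason, with the E-box in capitals:
Aen, chr7:78895967-78895996: cggcaagggttcCACGTGaaacctgggaaa
Trp53, chr11:69580357-69580386: actttcccctccCACGTGctcaccctggct

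TGACGTCA was in none of the 8 windows and in 1.79% of all promoters. TGACG was in the *Mdm2* window and 1 *Sesn1* window and in 20.8% of all promoters.

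Levels between genes were compared by the deposited FPKM, which divides by gene length. In untreated cells without beads *Ccng1* stood highest at 76.2 ± 5.22 FPKM (mean ± SD, n = 4 here and below). *Trp53* at 44.6 ± 2.93 and *Trp53inp1* at 42.1 ± 5.55 followed, and their replicates overlapped. *Mdm2* at 19.5 ± 1.69, *Sesn1* at 15.6 ± 3.48 and *Phlda3* at 14.7 ± 1.46 came next, and *Sesn1* overlapped both of the others. *Aen* at 9.88 ± 0.590 came next and *Zmat3* at 5.07 ± 0.492 last. With PGE2 *Aen* was at 3.95 ± 0.220 FPKM and overlapped *Zmat3* at 3.73 ± 0.359. With beads *Aen* came next after *Trp53* and *Ccng1* by mean, at 34.8 ± 5.6 FPKM without and 27.6 ± 7.31 with PGE2. In the latter group its replicates overlapped *Mdm2* at 18.8 ± 0.571. With beads alone *Trp53* at 51.9 ± 5.28 and *Ccng1* at 50.4 ± 5.99 FPKM overlapped. With beads and PGE2 *Trp53* at 54.3 ± 2.23 lay above every *Ccng1* value of 41.7 ± 4.79. *Trp53inp1*, at 8.67 ± 0.909 FPKM with beads alone, had moved below *Phlda3* at 12.6 ± 1.25. With beads and PGE2 the 2 genes overlapped, at 11.7 ± 3.08 and 9.42 ± 2.19 FPKM.

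**Figure D1:**
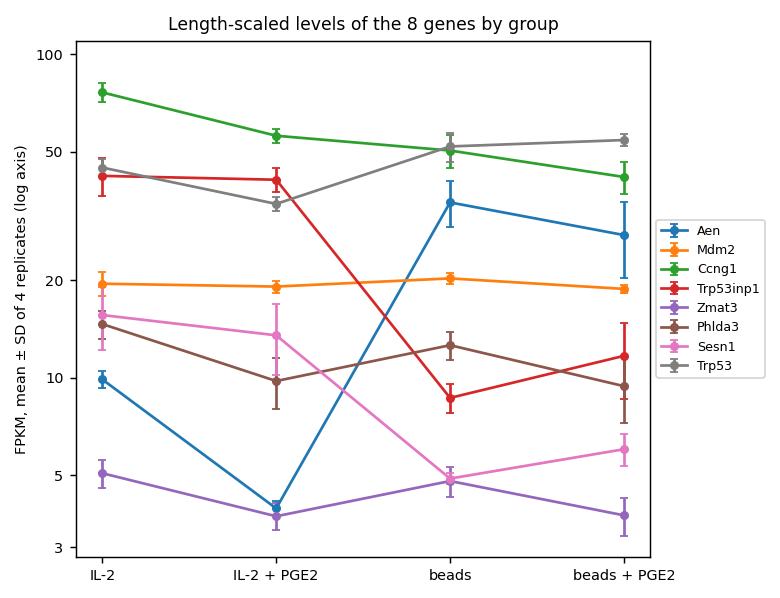
FPKM of the 8 genes by group on a log axis (points: mean of 4 replicates, bars: SD). *Aen* moved from near the bottom to a place behind *Trp53* and *Ccng1* between the untreated groups without and with beads, while *Trp53inp1* and *Sesn1* dropped and *Mdm2* stayed between 18.8 and 20.3 FPKM.

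*Aen* encodes an apoptosis-enhancing nuclease that digests DNA and RNA. In untreated cells without beads its replicates 1 to 4 held 60.4, 64.8, 56.8 and 59.0 CPM, scaled by trimmed mean of M-values (TMM). With PGE2 they held 24.5, 23.5, 21.9 and 25.2 CPM. With beads they held 237, 234, 204 and 173 CPM, and with beads and PGE2 208, 200.2, 148 and 118 CPM. The lowest levels were thus in PGE2-treated cells without beads and the highest in both bead groups, and the bead groups overlapped each other but no group without beads. Replicates 3 and 4 were lower than 1 and 2 in both bead groups. Without beads, the PGE2 group was at 0.400 of the untreated level (log2 -1.32 ± 0.064, SE), and 1.69% of the genes compared had a larger change. The bead groups were 3.49-fold above cells without beads when untreated and 7.17-fold above them under PGE2.

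**Figure D2:**
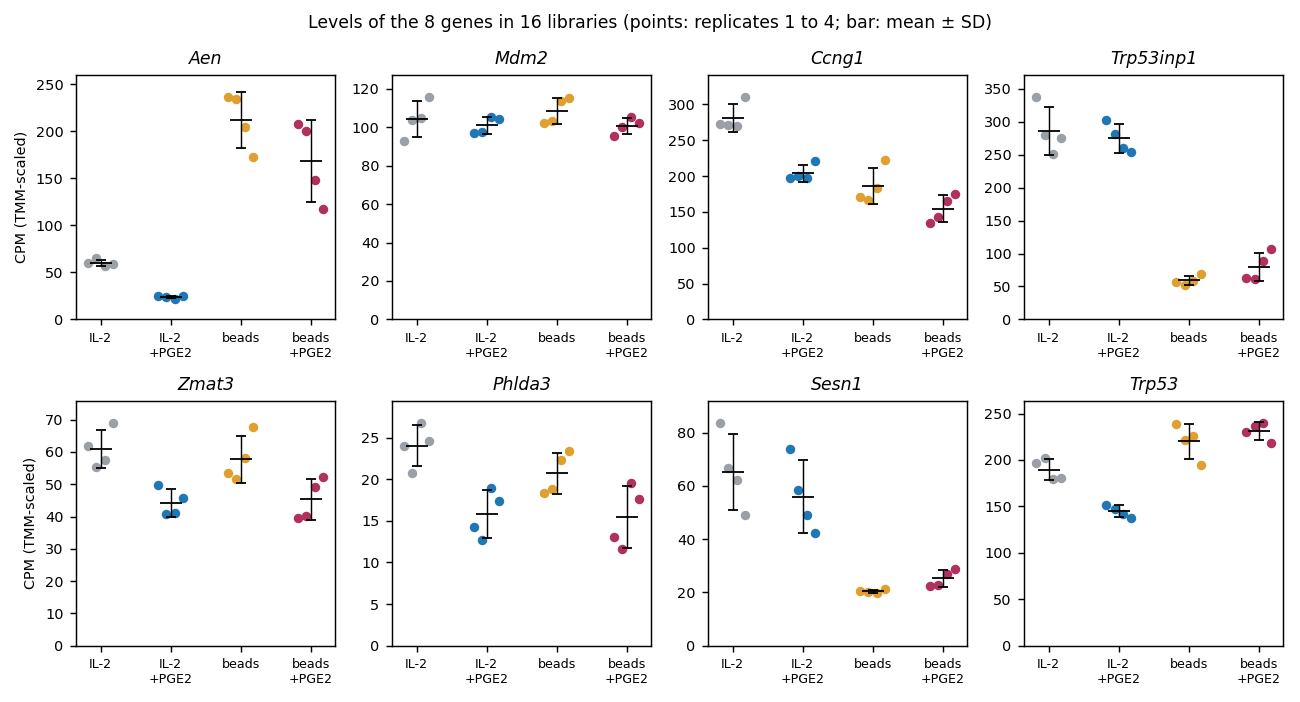
TMM-scaled CPM of each gene in the 16 libraries (points, replicates 1 to 4 from left to right; bars, mean ± SD; each axis starts at 0). *Aen* is lowest with PGE2 and no beads, *Trp53inp1* and *Sesn1* are low in both bead groups, and *Mdm2* stays between 93.1 and 116 CPM.

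*Trp53*, the factor itself, held 197, 202, 179 and 181 CPM in untreated cells without beads and 152, 148, 142 and 137 CPM with PGE2. With beads it held 239, 221, 226 and 194 CPM, and with beads and PGE2 230.0, 236, 239.7 and 218 CPM. PGE2-treated cells without beads were lowest, with no overlap with any other group, and the bead groups overlapped each other.

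*Mdm2*, the ligase that removes p53, held 93.1, 104, 105 and 116 CPM in untreated cells without beads and 97.0, 97.3, 105 and 104 CPM with PGE2. With beads it held 102, 103, 114 and 115 CPM, and with beads and PGE2 95.4, 100.1, 105 and 102 CPM. All 4 groups overlapped. *Ccng1*, cyclin G1, which brings phosphatase PP2A to MDM2, held 273, 272, 269 and 311 CPM in untreated cells without beads and 197, 199.8, 198 and 221 CPM with PGE2. It held 171, 167, 184 and 223 CPM with beads, and 134, 144, 165 and 175 CPM with beads and PGE2. Its order was thus untreated without beads, then PGE2 without beads and beads, which overlapped, then both together, which overlapped beads alone.

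*Trp53inp1* encodes a stress protein of the nucleus and of autophagy that helps to activate p53. It held 338, 280.0, 252 and 275 CPM in untreated cells without beads and 303, 282, 259.7 and 255 CPM with PGE2. It held 57.5, 51.8, 58.2 and 68.7 CPM with beads, and 62.6, 61.8, 88.5 and 106 CPM with beads and PGE2. The groups without beads overlapped each other and lay wholly above both bead groups, which also overlapped. *Sesn1* encodes sestrin 1, which restrains the growth kinase complex mTORC1. It held 83.6, 66.9, 62.1 and 49.0 CPM and, with PGE2, 73.8, 58.5, 48.9 and 42.2 CPM in cells without beads. It held 20.7, 20.3, 19.6 and 21.2 CPM with beads, and 22.4, 22.9, 27.0 and 28.7 CPM with beads and PGE2. It showed the same order of groups as *Trp53inp1*, except that its bead groups did not overlap each other.

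*Zmat3* encodes a zinc finger protein that binds RNA. It held 62.0, 55.4, 57.6 and 68.9 CPM and, with PGE2, 49.8, 40.7, 41.0 and 45.8 CPM in cells without beads. With beads it held 53.5, 51.6, 58.1 and 67.8 CPM, and with beads and PGE2 39.5, 40.0, 49.3 and 52.3 CPM. *Phlda3* encodes a pleckstrin homology domain protein that competes with AKT for membrane lipids. It held 24.0, 20.7, 26.7 and 24.6 CPM and, with PGE2, 14.3, 12.6, 19.0 and 17.3 CPM in cells without beads. With beads it held 18.4, 18.8, 22.3 and 23.3 CPM, and with beads and PGE2 13.1, 11.7, 19.5 and 17.7 CPM. In both genes the groups without PGE2 overlapped each other, as did the PGE2 groups, and the PGE2 groups had the lower means.

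With PGE2 and no beads, *Ccng1*, *Zmat3*, *Phlda3* and *Trp53* fell, in each case without overlap between the groups, and none of the 8 genes rose. By edgeR's quasi-likelihood test with Benjamini-Hochberg adjustment, *Trp53* fell from 189.7 ± 11.6 to 145 ± 6.57 CPM (log2 -0.37 ± 0.058, SE, adjusted p = 6.48e-04). *Ccng1* fell from 281 ± 19.7 to 204 ± 11.7 CPM (log2 -0.44 ± 0.068, adjusted p = 6.42e-04), and *Zmat3* from 61.0 ± 5.98 to 44.3 ± 4.32 (log2 -0.44 ± 0.080, adjusted p = 0.00178). *Phlda3* fell from 24.0 ± 2.48 to 15.8 ± 2.87 CPM (log2 -0.58 ± 0.13, adjusted p = 0.0072). Thus 4 of the 7 genes other than *Aen* fell at an adjusted p below 0.05, where 28.4% of all 14505 genes tested passed (15.5% downwards) and 28.8% had groups that did not overlap. None of the 4 reached a fold of 2, which 3.38% of all genes did together with the test. The median over the 7 genes was -0.37 on the log2 scale, against 0.00 over all genes tested.

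*Mdm2* (log2 -0.03 ± 0.074), *Trp53inp1* (-0.04 ± 0.085) and *Sesn1* (-0.21 ± 0.17) did not pass. Replicates of the same number deviated together in this comparison. With the replicate number as a block, *Sesn1* passed as well (log2 -0.21 ± 0.040, adjusted p = 3.40e-04 by edgeR). It was lower with PGE2 in each of the 4 same-numbered pairs, by ratios of 0.788 to 0.883. With the block 47.8% of all genes passed.

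**Figure D3:**
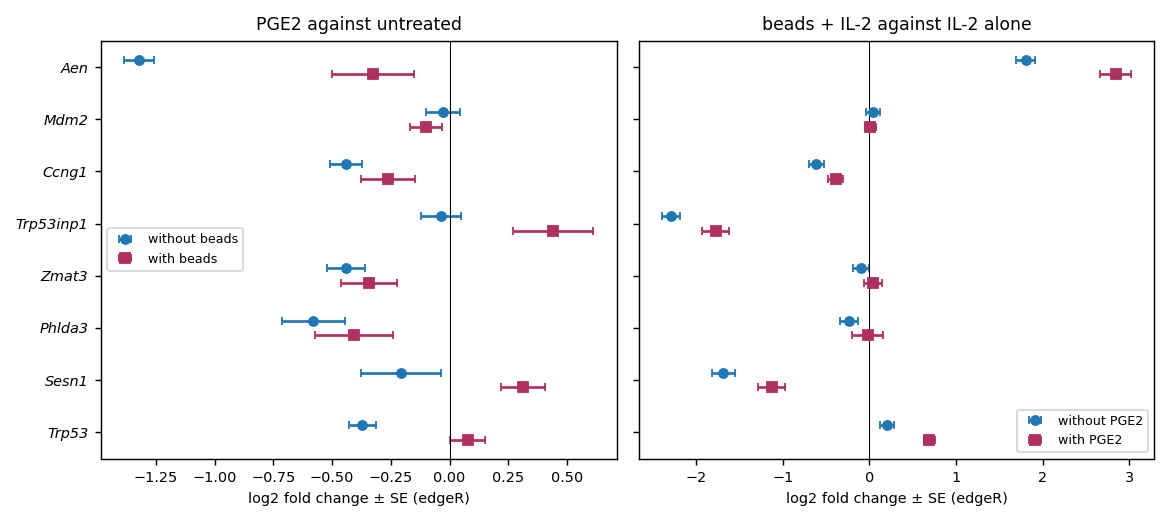
Log2 fold changes of the 8 genes with their SE from edgeR, on the left for PGE2 and on the right for beads. On the left *Aen* without beads lies apart at -1.32. On the right *Aen* lies at 1.80 and 2.84 and *Trp53inp1* at -2.29 and -1.77.

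In bead-stimulated cells, whose libraries played no part in the choice of *Aen*, all 8 genes could be tested for PGE2, and the direction differed among them. *Aen*, *Ccng1*, *Zmat3*, *Phlda3* and *Mdm2* had lower means with PGE2, and *Trp53inp1*, *Sesn1* and *Trp53* higher ones. In the fit without a block, 0 of 8 passed by edgeR at an adjusted p below 0.05, where 9.84% of all 13922 genes tested passed. At an unadjusted p below 0.05 there were 5, DESeq2 called 2 (*Zmat3* and *Sesn1*), limma on FPKM called 0, and edgeR fitted on all 16 libraries called 1 (*Zmat3*). *Aen* had 212 ± 30.02 CPM without and 168 ± 43.1 with PGE2 (log2 -0.32 ± 0.17, adjusted p = 0.258 by edgeR). *Sesn1* was the 1 gene of 8 whose groups did not overlap, which was so for 17.9% of all genes (log2 0.31 ± 0.094, adjusted p = 0.0652 by edgeR). The median over the 8 genes was -0.18, against -0.01 over all genes tested.

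The spread within the bead groups followed the replicate number. *Aen* was lower with PGE2 in each of the 4 same-numbered pairs, with ratios of 0.681 to 0.878. With the replicate number as a block, 6 of the 8 genes passed by edgeR, where 39.8% of all genes did. *Aen* fell (log2 -0.35 ± 0.064, adjusted p = 0.00172), as did *Ccng1* (-0.26 ± 0.045, adjusted p = 0.00118), *Zmat3* (-0.35 ± 0.047, adjusted p = 2.63e-04) and *Phlda3* (-0.43 ± 0.080, adjusted p = 0.00182). *Trp53inp1* rose (0.41 ± 0.076, adjusted p = 0.00172), with ratios of 1.09 to 1.55, and *Sesn1* rose (0.30 ± 0.070, adjusted p = 0.00618), with ratios of 1.08 to 1.37. *Mdm2* (-0.10 ± 0.040, adjusted p = 0.0763) and *Trp53* (0.08 ± 0.044, adjusted p = 0.185) did not pass. Whether any of these 8 genes is called with beads therefore depends on the fit used.

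**Figure D4:**
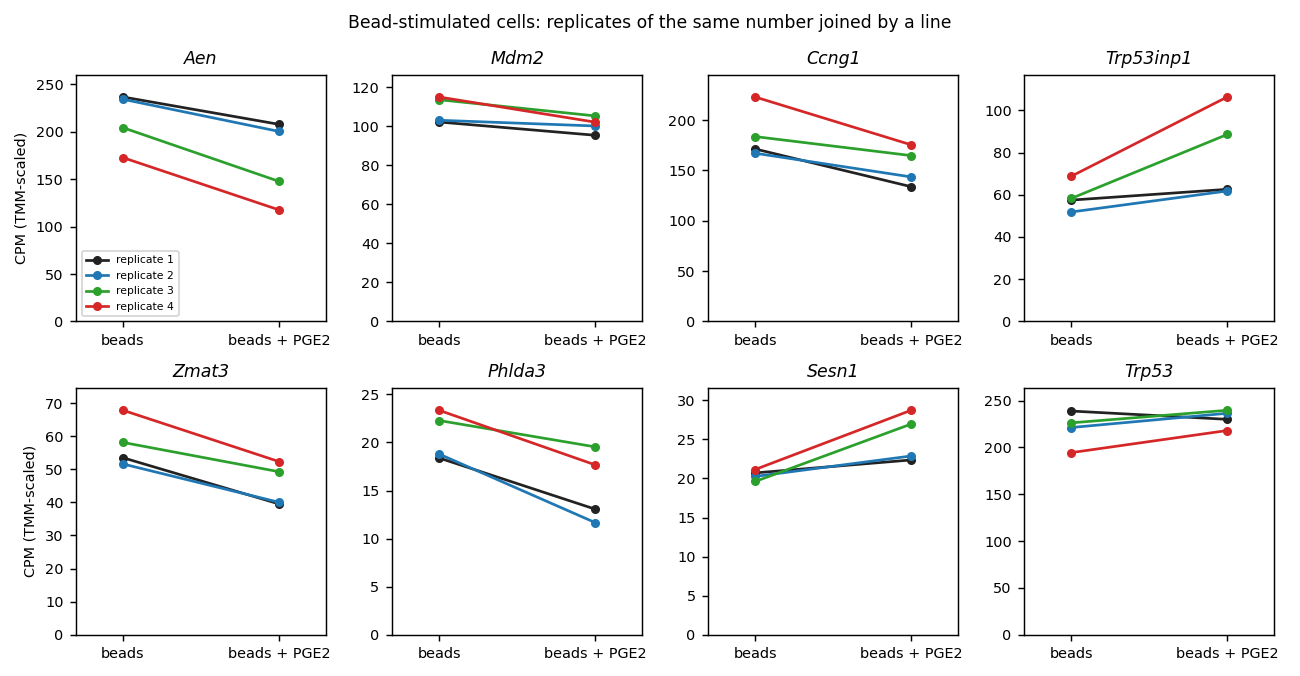
TMM-scaled CPM of the 8 genes in bead-stimulated cells, with replicates of the same number joined by a line (x axis, without and with PGE2). All 4 lines fall for *Aen*, *Ccng1*, *Mdm2*, *Zmat3* and *Phlda3*, all 4 rise for *Trp53inp1* and *Sesn1*, and 3 of 4 rise for *Trp53*.

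With beads in untreated cells, the tested targets that passed all fell. *Trp53inp1* fell from 286 ± 36.6 to 59.1 ± 7.05 CPM (log2 -2.29 ± 0.10, adjusted p = 9.62e-09 by edgeR). *Sesn1* fell from 65.4 ± 14.3 to 20.4 ± 0.655 CPM (log2 -1.69 ± 0.13, adjusted p = 2.36e-07), and *Ccng1* fell less (log2 -0.61 ± 0.090, adjusted p = 5.71e-05). *Trp53* itself rose from 189.7 ± 11.6 to 220.2 ± 18.7 CPM (log2 0.20 ± 0.082, adjusted p = 0.0436), although its groups overlapped. Thus 3 of the 7 genes other than *Aen* fell and 1 rose, where 66.5% of all 14205 genes tested passed, 34.8% downwards and 31.7% upwards. The 3 that fell had groups that did not overlap, as was so for 61.6% of all genes. *Trp53inp1* and *Sesn1* also exceeded a fold of 2, as 23.2% of all genes did with the test. The rise of *Trp53* was lost with upper-quartile scaling (adjusted p = 0.186), without the filter (0.0861) and by limma (0.0502), and, by edgeR, without either IL-2 replicate 3 or 4 or bead replicate 1, 2 or 3 (0.0806 to 0.115). It held with the replicate block (log2 0.20 ± 0.059, adjusted p = 0.0128 by edgeR), where 72.3% of all genes passed. *Trp53* was higher with beads in each of the 4 same-numbered pairs, by ratios of 1.08 to 1.26.

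*Zmat3* (log2 -0.09 ± 0.092), *Phlda3* (-0.23 ± 0.10) and *Mdm2* (0.04 ± 0.077, with the opposite sign under upper-quartile scaling) did not pass. *Phlda3* passed with the replicate block (log2 -0.23 ± 0.069, adjusted p = 0.0142 by edgeR, where 72.3% of all genes passed), with upper-quartile scaling (adjusted p = 0.0246) and without IL-2 replicate 2 or bead replicate 4.

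Under PGE2 the same 4 genes passed for beads, of 7 tested, where 64.2% of all 14507 genes did. The groups of all 4 did not overlap, as was so for 60.2% of all genes, and 3 fell and 1 rose, against 31.7% and 32.5% of all genes. *Trp53* rose from 145 ± 6.57 to 231 ± 9.55 CPM without overlap (log2 0.69 ± 0.065, adjusted p = 6.72e-06 by edgeR). *Trp53inp1* (log2 -1.77 ± 0.16, adjusted p = 4.33e-06), *Sesn1* (-1.13 ± 0.15, adjusted p = 7.43e-05) and *Ccng1* (-0.39 ± 0.088, adjusted p = 0.00254) fell. *Trp53inp1* and *Sesn1* again exceeded a fold of 2, as 22.1% of all genes did with the test. *Mdm2*, *Zmat3* and *Phlda3* lay between -0.02 and 0.05 on the log2 scale. Upper-quartile scaling moved the median of all genes by -0.13 in this comparison, and with it *Mdm2* and *Zmat3* took the opposite sign.

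The interaction term asks whether PGE2 acted differently with and without beads, over all 16 libraries. Of the 7 genes other than *Aen*, *Trp53* passed by edgeR (log2 difference of 0.46 ± 0.097, adjusted p = 0.0347), where 0.749% of all 15096 genes tested passed. PGE2 gave -0.37 without beads and 0.08 with them. DESeq2 and upper-quartile scaling also called it. So did the replicate block (0.46 ± 0.070, adjusted p = 0.00276 by edgeR), with which 408 of all genes passed, although the numbers were not taken as pairs for beads under PGE2. The call was lost with relative log expression factors (adjusted p = 0.0885), without the filter (0.121) and by limma (0.0946). It was also lost without any 1 of 12 of the 16 libraries (adjusted p by edgeR up to 0.128) and held without IL-2 replicate 4, IL-2 with PGE2 replicate 1, bead replicate 1 or bead with PGE2 replicate 4. *Aen* had a difference of 1.01 ± 0.20, as a description. *Sesn1* (0.53 ± 0.22, adjusted p = 0.444) and *Trp53inp1* (0.49 ± 0.21, adjusted p = 0.442) did not pass by edgeR.

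The pattern of *Aen* was compared with that of 9912 genes of at least 5 CPM on average, by Pearson correlation of log2 CPM over the 16 libraries. These fall into 4 groups and share depth and scaling, so the values are descriptions. The 5 most alike were *Bid* (0.999), *Rrp12* (0.999), *Srm* (0.999), *Ifrd2* (0.998) and *Noc2l* (0.998). *Bid* encodes a pro-apoptotic BH3 protein, *Rrp12* and *Noc2l* factors of the nucleolus and ribosome assembly, and *Srm* spermidine synthase. *Srm* averaged 66.7 CPM untreated without beads, 17.3 with PGE2, 393 with beads and 294 with both. *Bid* averaged 23.7, 10.7, 64.1 and 52.9 CPM in the same order. Among the p53 genes, *Trp53* was most like *Aen* (0.94, rank 1631), and *Trp53inp1* (-0.91) and *Sesn1* (-0.84) ran opposite to it. *Mdm2*, *Zmat3* and *Phlda3* lay between 0.04 and 0.19, and *Ccng1* at -0.51.

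A wider list of 44 other p53 targets, in 5 roles, was followed beside the 8 genes. With PGE2 and no beads, 5 rose and 11 fell of 42 tested, where 28.4% of all genes passed and 15.5% fell, with a median of -0.14 on the log2 scale against 0.00 over all genes. Of the 10 apoptosis genes tested 4 fell and 1 rose. *Bax*, which opens the mitochondrial membrane (log2 -0.32 ± 0.048, adjusted p = 5.50e-04 by edgeR), *Bbc3*, which encodes the BH3 protein PUMA (-0.49 ± 0.11, adjusted p = 0.00539), and *Fas*, the death receptor (-0.34 ± 0.081, adjusted p = 0.00945), fell. *Pmaip1*, which encodes NOXA, did not pass (-0.38 ± 0.15, adjusted p = 0.0805), but did with the block (adjusted p = 9.35e-04), without the filter (0.0353) and without IL-2 with PGE2 replicate 4 (0.0268). Of 10 cell cycle genes, 3 rose and 2 fell. *Gadd45a*, a growth arrest gene, rose at a low level, from 1.85, 1.73, 1.91 and 2.08 CPM to 3.72, 3.38, 3.52 and 3.00 CPM (log2 0.86 ± 0.15), and *Btg2*, an antiproliferative gene, rose (0.40 ± 0.092). *Plk3*, a polo-like kinase, fell (-0.72 ± 0.10). *Cdkn1a*, the cyclin kinase inhibitor p21 and the classical p53 target, stood at -0.02 ± 0.30.

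Of 13 metabolism and stress genes tested, 1 rose and 5 fell with PGE2 and no beads, where 28.4% of all genes passed and 15.5% fell. *Gls2*, a glutaminase, rose the most (log2 1.51 ± 0.36), and *Rps27l*, a ribosomal protein paralogue (-0.66 ± 0.078), and *Gpx1*, a glutathione peroxidase (-0.50 ± 0.065), fell. None of the 5 repair genes or the 4 feedback genes passed by edgeR, *Mdm4* included (-0.11 ± 0.11). At an unadjusted p below 0.05 there were 1 repair gene and 0 feedback genes, and DESeq2 and limma called 0 of either. The replicate block called 1 repair gene and 0 feedback genes, where 47.8% of all genes passed.

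With PGE2 and beads, 2 of 41 rose and 7 fell, where 9.84% of all genes passed, with a median of -0.11 against -0.01 over all genes. The 2 that rose were cell cycle genes, and 5 of the 12 metabolism and stress genes and 2 of the 10 apoptosis genes fell. *Gadd45a* (log2 0.68 ± 0.17, adjusted p = 0.0328 by edgeR) and *Sfn*, the checkpoint protein 14-3-3 sigma (0.35 ± 0.093, adjusted p = 0.0409), rose. *Tnfrsf10b*, the TRAIL receptor, fell from 32.3, 33.9, 34.9 and 34.9 CPM to 23.6, 25.7, 24.9 and 25.1 CPM (-0.45 ± 0.067, adjusted p = 0.00326). *Sesn2*, the sestrin of nutrient stress (-0.43 ± 0.12), *Rps27l* (-0.36 ± 0.077) and *Bax* (-0.25 ± 0.065) fell too. The calls of *Gadd45a* and *Bax* were lost without the filter (adjusted p by edgeR = 0.0672 and 0.0808), those of *Sfn* and *Bax* by limma (0.0578 and 0.0698) and that of *Sesn2* with upper-quartile scaling (0.0677), and leaving out 1 library left 3 to 11 of the list. *Cdkn1a* (-0.11 ± 0.21), *Fas* (-0.14 ± 0.085) and *Mdm4* (-0.07 ± 0.11) did not pass. *Bbc3* (-0.42 ± 0.19) and *Pmaip1* (-0.28 ± 0.16) passed only with the replicate block. With that block 5 rose and 18 fell with beads, where 39.8% of all genes passed, and 7 rose and 18 fell without them, where 47.8% did.

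**Figure D5:**
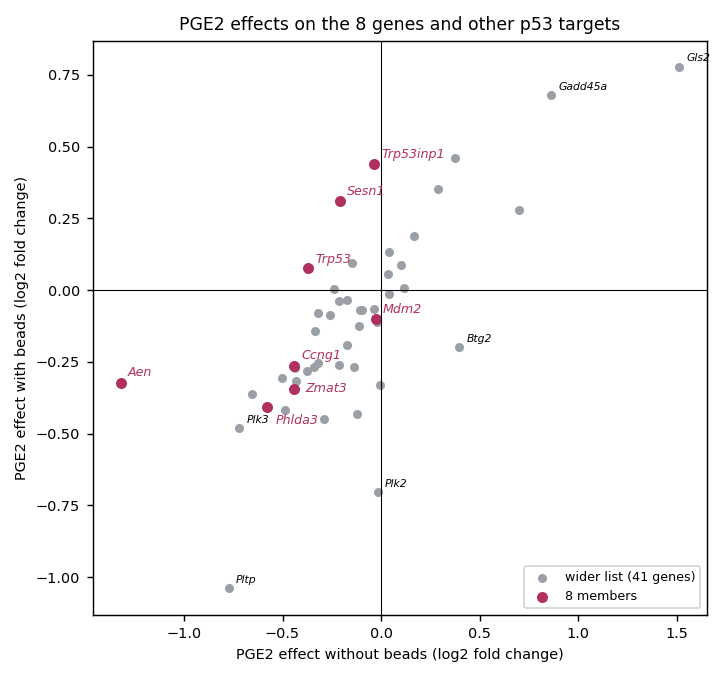
PGE2 effect on the log2 scale without beads (x axis) and with beads (y axis) for the 8 genes and 41 other p53 targets; the axes share no library. *Aen* is leftmost at -1.32, *Sesn1*, *Trp53inp1* and *Trp53* lie at upper left, and *Gls2* and *Gadd45a* at upper right.

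With beads, members of the wider list moved in both directions, as genes at large did. In untreated cells 12 rose and 19 fell of 42, where 66.5% of all genes passed, 31.7% upwards and 34.8% downwards. Under PGE2 13 rose and 17 fell, where 64.2% of all genes passed. The medians were -0.17 and 0.01 on the log2 scale, against -0.03 and 0.00 over all genes. In untreated cells 3 of the 10 cell cycle genes rose and 6 fell, 4 of the 10 apoptosis genes rose and 4 fell, and 5 of the 13 metabolism and stress genes rose and 4 fell. Of the 5 repair genes 3 fell, and of the 4 feedback genes 2 fell. *Cdkn1a* rose from 64.2, 72.8, 112 and 149 CPM to 196, 214, 304 and 335 CPM (log2 1.37 ± 0.24, adjusted p = 2.78e-04 by edgeR), and under PGE2 by 1.33 ± 0.26. Within each group its replicates 3 and 4 were above 1 and 2. *Plk2* and *Plk3*, polo-like kinases, rose by 3.87 and 2.45 on the log2 scale without PGE2 and by 3.24 and 2.73 with it. *Perp*, a membrane protein of apoptosis, rose by 1.94 without PGE2, and *Dram1*, a lysosomal protein of autophagy, by 2.19 with it. Each is named where it was among the 3 largest rises. The mean of *Perp* was also higher with beads under PGE2 (14.2 to 42.0 CPM), and that of *Dram1* without PGE2 (0.552 to 2.05 CPM). *Dram1* was at a low level, with a mean of 0.420 CPM with PGE2 and no beads.

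*Apaf1*, the core of the apoptosome, fell by 1.19 and 1.06 on the log2 scale without and with PGE2, and *Bbc3* by 0.92 and 0.81. *Ddit4*, an mTORC1 inhibitor, fell by 0.78 without PGE2, and *Ercc5*, a repair nuclease, by 0.84 with it. The mean of *Ddit4* was also lower with beads under PGE2 (707 to 449 CPM), and that of *Ercc5* without PGE2 (40.9 to 24.3 CPM). *Fas* rose by 0.43 and 0.67. *Bax* had 0.14 ± 0.070 without PGE2, which did not pass by edgeR but did with the replicate block (adjusted p = 0.047), in 1 fit of all 16 samples (0.0276) and without bead replicate 4 (0.0190), and rose under PGE2 (0.25 ± 0.066), a call lost with upper-quartile scaling (0.0843) and without the filter (0.0810). *Pmaip1* and *Mdm4* did not pass in either bead comparison. In the interaction test 1 of 42 passed, where 0.749% of all 15096 genes tested did. This was *Btg2* (log2 difference -0.58 ± 0.13, adjusted p = 0.0415 by edgeR). Its call was lost by limma (0.0755) and without any 1 of 12 of the 16 libraries (up to 0.111). With the replicate block *Btg2* passed (-0.58 ± 0.10, adjusted p = 0.00602 by edgeR), as 1 of 3 of the list, where 408 of all genes passed. The numbers were not taken as pairs for beads under PGE2, whose libraries the interaction includes.

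Of 10 regulators and relatives of p53, 8 could be tested. With PGE2 and beads, the checkpoint kinase gene *Chek1* (-0.48 ± 0.085) and *Cdkn2a* (-0.76 ± 0.17) fell, where 9.84% of all genes passed. *Cdkn2a*, which encodes p16 and the MDM2 antagonist ARF, was at a low level, with means of 4.43 CPM with beads and 2.61 CPM with beads and PGE2. Without beads *Hipk2*, a p53 kinase (0.56 ± 0.15), and *Trp53bp1*, a break repair factor (0.20 ± 0.061), rose, where 28.4% of all genes passed. DESeq2 called 2 of the regulators up and 1 down. Limma did not call *Trp53bp1*. It did not test *Hipk2*, at 0.711 FPKM untreated and 1.05 with PGE2, since that fit required a mean of at least 1 FPKM over both groups. With the replicate block *Hipk2* and *Trp53bp1* rose and 4 of the 8 also fell, where 47.8% of all genes passed. These were *Atm* (adjusted p = 3.40e-05 by edgeR), *Chek1* (6.17e-04), *Chek2* (0.00256) and *Usp7* (0.00656), which encodes a deubiquitinase of p53 and MDM2. Beads raised 5 and lowered 2 of the 8 in untreated cells, against 66.5% of all genes called, and *Atm* (-0.63 ± 0.098) and *Chek2* (-1.25 ± 0.14), kinases that act on p53 after DNA breaks, were those that fell. Under PGE2, where 64.2% of all genes passed, 4 rose and the same 2 fell (-0.34 and -0.89).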

How the data were processed

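RNA-seq was compared in 16 libraries, 4 per group. Per the labels and methods, the authors made poly(A)-selected libraries, aligned reads to GRCm38 with HISAT2 2.0.5, counted them per gene with featureCounts 1.5.0-p3 and tested with DESeq2 1.20.0. The use of strand is not given in the sources used here. The deposited count values are whole reads per gene without normalization, and the authors derived the deposited FPKM from counts and gene lengths. Gene lengths equal merged exons of GENCODE M21 for all 8 genes.

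Counts were filtered by filterByExpr at a minimum count of 10, scaled by TMM and tested two-sided by glmQLFTest after glmQLFit (edgeR 4.0.16, R 4.3.3), with Benjamini-Hochberg adjustment over all genes tested. Pairwise fits held 8 samples and no covariate, and the interaction fit 16. CPM are TMM-scaled. Log2 CPM used a prior count of 2. DESeq2 1.42.0, limma 3.58.1 on log2(FPKM + 1), other scalings, no filter and leaving out each library were alternatives. All 8 genes passed the filter in every fit. The edgeR, DESeq2 and limma fits without a block were tested first on counts simulated for PGE2 with beads. The replicate block, the interaction, the fit of all libraries, the other scalings and the other comparisons were not tested so. The spread between replicates (biological coefficient of variation 0.115 to 0.139) limits precision more than counting error.

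Deviations of same-numbered samples correlated at 0.289 to 0.495 for PGE2 with beads, 0.151 to 0.480 for PGE2 without beads and 0.119 to 0.406 for beads without PGE2. All pairs thus exceeded 0.1 and the numbers were taken to pair the samples there. Differently numbered samples reached 0.330, 0.153 and 0.176 in the same order, each above the lowest same-numbered value. Exceeding 0.1 therefore does not by itself show that the numbers are pairs, and results with the block rest on taking them so. Taken sample by sample in the group without the treatment compared, each same-numbered value was above that sample's values with other numbers in these comparisons. The labels do not say what a number stands for. For beads under PGE2, 2 of 4 pairs did not exceed 0.1.

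The genes and lists were chosen with earlier results of these data known. All 8 genes are named. Of the wider list, *Cdkn1a*, *Bax*, *Bbc3*, *Pmaip1*, *Fas* and *Mdm4* are named, and in each pairwise comparison the 3 largest rises and falls past the adjusted p of 0.05 with at least 1 CPM. *Btg2* in the interaction and the regulators were named after their values were seen. *Eda2r*, *Gdf15*, *Trp63* and *Trp73* were not tested in any pairwise comparison, and *Ak1* not for PGE2 with beads.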

Additional observations from a re-analysis of the deposited data

Results flagged for a closer look

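The highest or lowest of the 4 replicates stood far from the others, by Dixon's ratio of its gap to the whole range, in 5 of 116 combinations of gene and group. Chance gives about 1 in 20. *Ccng1* stood apart so with IL-2 alone (0.909; 273, 272, 269 and 311 CPM) and with IL-2 and PGE2 (0.878; 197, 199.8, 198 and 221 CPM), in both cases through a high replicate 4. *Gadd45a* stood apart so with beads and PGE2 (0.845) through replicate 2 at 1.97 CPM, *Sfn* with IL-2 and PGE2 (0.849) through replicate 4 at 68.2 CPM, and *Perp* with beads (0.930) through replicate 3 at 32.7 CPM.

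The effect of PGE2 was called different between cells with and without beads for *Trp53* (log2 difference 0.46) and *Btg2* (-0.58). Each call was by edgeR's test of the difference itself, which 0.749% of all genes passed. Both were lost by limma (adjusted p = 0.0946 and 0.0755) and without any 1 of 12 of the 16 libraries. That of *Trp53* was also lost with relative log expression factors (adjusted p = 0.0885 by edgeR) and without the filter (0.121). PGE2 gave *Btg2* 0.40 ± 0.092 without beads and -0.20 ± 0.068 with beads on the log2 scale.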

How the results depend on the processing

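Of the 7 genes other than *Aen*, 4 passed for PGE2 without beads and for beads under PGE2 in each setting without the block, and 3 to 5 for beads without PGE2. For PGE2 with beads, counts past the test were 2 of the 8 genes, 14 of the wider list and 2066 of all genes by DESeq2, and 1 and 2161 (8 genes, all genes) in 1 fit of 16 samples, against 0, 9 and 1370. With the replicate block these were 6, 23 and 5544. For PGE2 without beads the block gave 25 of the wider list and 6938 genes, against 16 and 4122. For the interaction, 1 of 7 genes, 1 of the wider list and 113 genes passed. Relative log expression factors and no filter gave 0 of 7, DESeq2 2 of the list and 234 genes, the replicate block 3 and 408, and limma 0 of 7, 0 and 43. Among the genes given a call in a comparison, the block changed 1 call not given above. This was *Mdm4* for beads under PGE2 (adjusted p = 0.0251 by edgeR), where the numbers were not taken as pairs. The block also changed genes in comparisons where no call is given for them. For PGE2 with beads, *Plk2*, *Plk3*, *Perp*, *Apaf1* and *Btg2* passed with it (adjusted p by edgeR up to 0.00454) but not without it (0.0760 to 0.153). The cause of these shifts was not tested. Leaving out 1 library gave 0 to 1 of 8, 3 to 11 of the list and 630 to 1854 genes for PGE2 with beads, and 0 to 1 of 7, 0 to 1 and 44 to 217 for the interaction. The 1 of 8 was *Sesn1* without bead with PGE2 replicate 1 (adjusted p = 0.0347 by edgeR).

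Reversals were of genes near 0 that did not pass. For beads without PGE2, upper-quartile scaling gave *Mdm2* -0.0565 and *Mdm4* -0.00617. For beads under PGE2, *Mdm2* was at -0.116 with upper-quartile scaling, -0.0437 without the filter, -0.0032 in 1 fit of 16 samples and -0.0223 by limma, *Zmat3* at -0.0745 with upper-quartile scaling and -0.00859 without the filter, and *Pmaip1* at 0.00668 with the block. Leaving out 1 library reversed 28 values. For PGE2 with beads *Cdkn1a* gave -0.224 to 0.0291 and *Mdm4* -0.134 to 0.013. For PGE2 without beads *Trp53inp1* gave -0.091 to 0.0464, *Mdm2* -0.0823 to 0.0257 and *Cdkn1a* -0.265 to 0.239. For beads without PGE2 *Mdm2* gave -0.0155 to 0.0879 and *Mdm4* -0.00576 to 0.17. For beads under PGE2 *Mdm2* gave -0.0513 to 0.0328, *Zmat3* -0.0321 to 0.103, *Phlda3* -0.185 to 0.0602 and *Pmaip1* -0.164 to 0.108. *Aen* kept its sign under every alternative run.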
